A study of Mus musculus with 18 samples.

Results

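The 10 genes described here, Cdh1, Epcam, Cldn6, Cdh2, Vim, Snai1, Snai2, Zeb1, Zeb2 and Twist1, mark or drive the switch between epithelial and mesenchymal cells. They were chosen by name and not by a rule on their values, but with earlier results of these data known. Each matched exactly 1 of the 55471 gene identifiers in the deposited tables. Their levels were read in all 18 mouse RNA-seq libraries, to place cells held by the reprogramming factors (OSKM) and cells held in 2iL relative to mouse embryonic fibroblasts (MEFs), clone by clone. All 10 were measured, and in the comparison of the 2 media in embryonic stem cells (ESCs) 8 exceeded an FPKM of 1 (fragments scaled to gene length and library size) in both media, Zeb2 did so only in OSKM-ESC libraries, and Snai2 did so in neither medium.

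MEFs are mesenchymal cells, while mouse pluripotent cells grow as compact epithelial colonies, so a fibroblast that is reprogrammed passes through a mesenchymal-to-epithelial transition. The epithelial state rests on E-cadherin (Cdh1) adherens junctions, on the adhesion molecule Epcam and on claudins such as Cldn6 in tight junctions. In the mesenchymal state cells carry N-cadherin (Cdh2) and the intermediate filament vimentin (Vim). The zinc-finger factors Snai1, Snai2, Zeb1 and Zeb2 bind E-box sequences and repress epithelial genes, and the basic helix-loop-helix factor Twist1 promotes the same transition. The opposite transition takes place in the embryo at the primitive streak, where epiblast cells leave the epithelium and exchange E-cadherin for N-cadherin.

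The ESCs were 1 line from a cross of (C57BL/6 x 129S4/SvJae)F1 with (CBA/CaJ X C57BL/6J)F2 mice, and carried doxycycline-inducible OSKM (Oct4, Sox2, Klf4 and c-Myc, with M2rtTA at Rosa26 and OSKM at Col1a1) and an Oct4-GFP reporter. The OSKM-ESC group was moved from 2iL into basal N2B27 medium with doxycycline (DOX), and the 2iL-ESC group stayed in N2B27 with the MEK inhibitor PD0325901, the GSK3 inhibitor CHIR99021 and LIF (2iL). Each was sampled on days 18, 25 and 38 with 2 libraries a day. The induced pluripotent stem cells (iPSCs) came from MEFs of the strain (C57BL/6 x 129S4/SvJae)F1 with the same inducible OSKM, as 2 OSKM-iPSC clones (1 at passage 7 and 3 at passage 6) and 2 2iL-iPSC clones (3 at passage 2 and 6 at passage 3). The 2 MEF libraries, of that strain with the same transgenes, were at passage 4 in serum medium. Every group carried the OSKM cassette, so no group lacked it, and ESCs and iPSCs were grown on feeder MEFs. Passage and medium cannot be told apart in the iPSCs, and strain and cell origin cannot be told apart between ESCs and iPSCs. For the 2iL-iPSC clones the labels name N2B27 with DOX as the daily medium, whereas the methods of the study describe 2iL without DOX, and the group name is used here. Nothing in the labels ties the 2 ESC libraries of a day to separate cultures. Within ESCs, p-values of the single-day, day and interaction tests therefore measure the spread between those libraries, which may be technical. The spread in the test over all days also includes how the medium difference varied between days.

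An estimated 16700000 to 20200000 fragments stood behind a library, and 11303 to 12095 genes exceeded an FPKM of 1. The summed level of 8 pluripotency markers was 1.15 and 2.06 FPKM in the MEF libraries and at least 925 FPKM in every pluripotent library. The fibroblast level of each pluripotent library was taken as the median, over 12 fibroblast markers, of its FPKM as a percentage of the MEF mean. OSKM-iPSC clone 1 stood apart from the other pluripotent libraries with 7.57%, against 0.138% in clone 3, 1.34% to 2.87% in OSKM-ESC, 0.262% to 0.41% in 2iL-ESC, and 0.155% and 0.0921% in the 2iL-iPSC clones. In bulk RNA, fibroblasts in a culture and fibroblast genes active at a low level in every cell cannot be told apart, nor can fewer cells of a type and less RNA per cell.

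In the coordinates of GRCm38 used by the files, Cdh1 (ENSMUSG00000000303) spans chromosome 8 from 106603351 to 106670246, Epcam (ENSMUSG00000045394) spans chromosome 17 from 87635979 to 87651129, and Cldn6 (ENSMUSG00000023906) spans the same chromosome from 23679249 to 23682446. Vim (ENSMUSG00000026728) lies on chromosome 2 from 13573927 to 13582826, Snai1 (ENSMUSG00000042821) on chromosome 2 from 167538195 to 167542814, Snai2 (ENSMUSG00000022676) on chromosome 16 from 14705852 to 14709385 and Twist1 (ENSMUSG00000035799) on chromosome 12 from 33957671 to 33959829, all on the forward strand as are the 3 epithelial genes. Zeb2 (ENSMUSG00000026872) lies on the reverse strand of chromosome 2 from 44983632 to 45117395. FPKM values are sums over each whole gene. The library kit did not mark strand, and every annotated gene that overlaps a member stayed at or below 0.753 FPKM in all libraries.

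The SNAI and ZEB factors bind the E-box CACCTG, whose other strand reads CAGGTG, and promoters from RefSeq (GRCm38.p6, 250 bases before to 50 after each start) were searched for both. They cover 6 of the 10 genes with 9 promoters, and 20.2% of all 32851 promoters hold at least 1 such E-box while 2.88% hold 2 or more. The Epcam promoter holds 2, which begin 187 and 19 bases before the start. Cldn6 also holds 2, at 93 bases before the start and at base 41 of the transcript, and Snai1 holds 1, at 126 bases before the start. None was found in the windows of Vim, Twist1 or the 4 promoters of Zeb2. The sequences are shown because Epcam and Cldn6 are the epithelial genes that differed most between the media, and Snai1 encodes a factor that binds this E-box. All are on the forward strand, 5′ to 3′, with the E-boxes in capitals. For Epcam (chr17:87635729-87635978) and Snai1 (chr2:167537945-167538194) the 250 bases before the start are given, and for Cldn6 (chr17:23679260-23679289) the 30 bases around the E-box before its RefSeq start. That Cldn6 stretch lies inside the gene span given above, which begins before the RefSeq start, so it is not upstream of the gene as the files annotate it. A match describes the letters and does not show binding.
Epcam: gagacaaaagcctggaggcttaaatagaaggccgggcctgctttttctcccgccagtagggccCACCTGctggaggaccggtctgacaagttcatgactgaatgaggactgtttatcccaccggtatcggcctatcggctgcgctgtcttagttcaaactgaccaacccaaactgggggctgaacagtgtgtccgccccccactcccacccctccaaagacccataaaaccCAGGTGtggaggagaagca
Cldn6: gggaaacgcacgCAGGTGgctatcgccgca
Snai1: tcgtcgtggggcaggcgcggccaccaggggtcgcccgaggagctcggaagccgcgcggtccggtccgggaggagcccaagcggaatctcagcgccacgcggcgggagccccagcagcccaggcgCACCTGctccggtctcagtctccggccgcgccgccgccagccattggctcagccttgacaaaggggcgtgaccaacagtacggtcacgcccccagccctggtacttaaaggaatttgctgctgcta

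**Figure D1:**
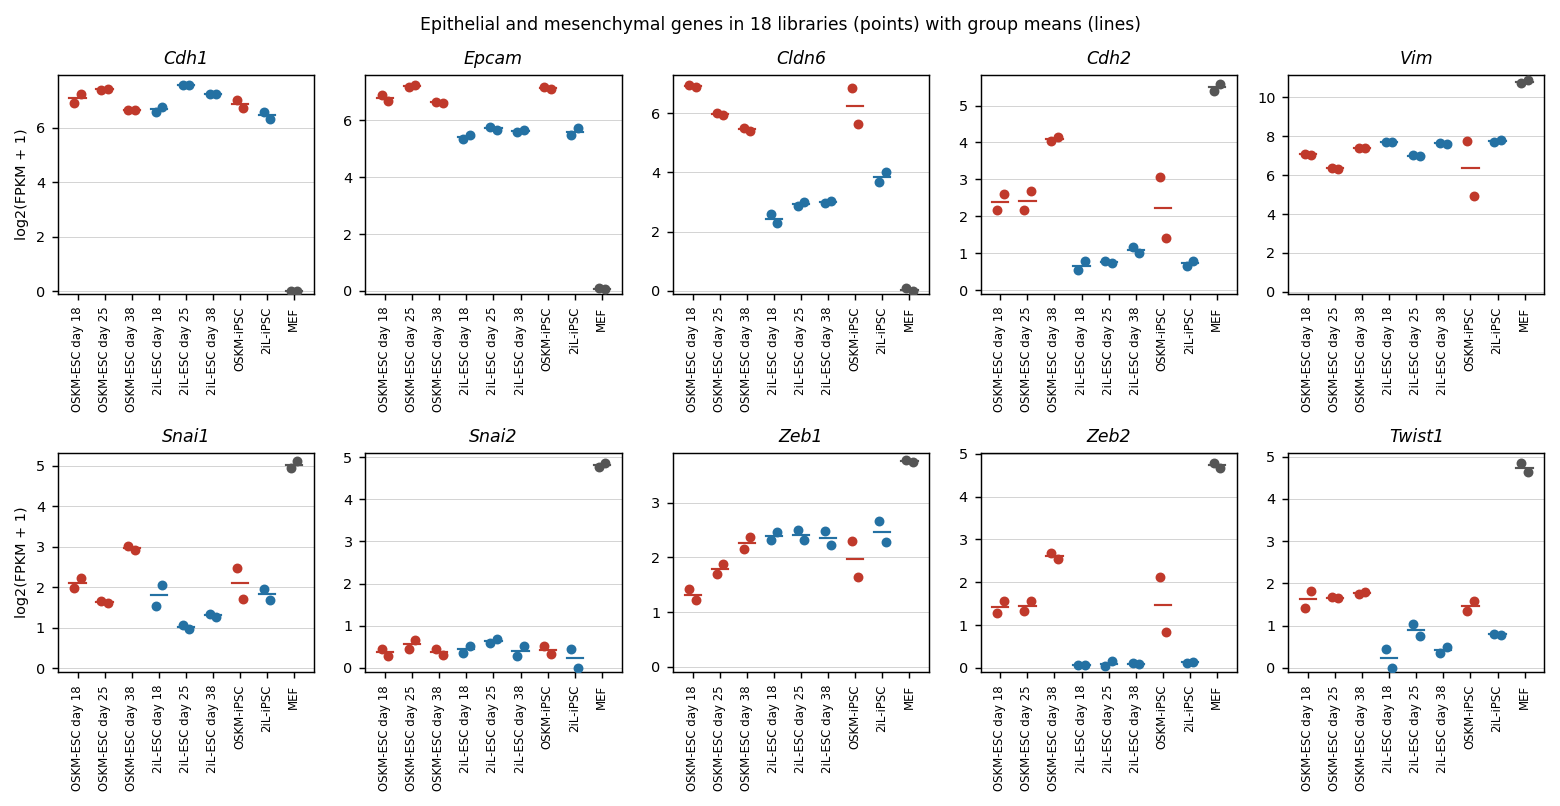
Level of each of the 10 genes in all 18 libraries, as log2(FPKM + 1) on the vertical axis, with 1 point a library (red OSKM, blue 2iL, grey MEF) and a line at each group mean. Cdh1, Epcam and Cldn6 are at or near 0 in the grey MEF points and high elsewhere, while the other 7 genes are highest in MEFs. Within the red points, Cdh2, Snai1 and Zeb2 are highest on day 38.

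Cdh1, which encodes E-cadherin, separated pluripotent cells from MEFs but was similar in the 2 media over all days. It was listed at 0 FPKM in both MEF libraries. OSKM-ESC libraries had 121 and 149 FPKM on day 18, 168 and 172 on day 25, and 101 and 99.7 on day 38. In 2iL-ESC the values were 94.5 and 108, 189 and 190.0, and 151 and 151 on the same days. The ranges of the media overlapped, and the mean was 135 ± 32.7 FPKM in OSKM-ESC and 147 ± 39.8 in 2iL-ESC (SD, n = 6 each). The fitted difference on the log2(FPKM + 1) scale was -0.11 (SE 0.13, 95% interval -0.40 to 0.18, limma adjusted p = 0.503). Among iPSCs, Cdh1 was at 129 and 104 FPKM in OSKM-iPSC clones 1 and 3 and at 95.8 and 79.5 in 2iL-iPSC clones 3 and 6. Both OSKM-iPSC clones were above both 2iL-iPSC clones, but the difference of 0.40 did not pass the test (interval -0.04 to 0.85, adjusted p = 0.20).

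Epcam, which encodes an epithelial adhesion molecule, was higher under OSKM in ESCs and in iPSCs. Its MEF levels were 0.0631 and 0.0563 FPKM. The 6 OSKM-ESC libraries ranged from 96.9 to 152 FPKM with a median of 110.1, and the 6 2iL-ESC libraries from 39.5 to 53.7 with a median of 48.6. No 2iL-ESC library reached the lowest OSKM-ESC library, and the log2 difference was 1.29 (SE 0.08, limma adjusted p = 1.4e-07). The OSKM-iPSC clones had 143 and 138 FPKM against 43.4 and 52.5 in the 2iL-iPSC clones, a log2 difference of 1.54 (SE 0.15, adjusted p = 0.012). In both cell origins the 2iL cells therefore expressed Epcam well above MEFs and below the OSKM cells.

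Cldn6, a claudin of early embryonic epithelia, showed the largest medium difference among the 10 genes in ESCs over all days on the log2(FPKM + 1) scale. It was listed at 0 in 1 MEF library and at 0.0621 FPKM in the other. OSKM-ESC libraries had 123 and 117 FPKM on day 18, 62.8 and 59.5 on day 25, and 44.2 and 41.2 on day 38, whereas 2iL-ESC libraries stayed between 3.92 and 7.19. The groups did not overlap, and the log2 difference over all days was 3.32 (SE 0.26, limma adjusted p = 7.3e-07). OSKM-iPSC clone 1 had 113 FPKM and clone 3 had 48, against 11.6 and 15.2 in the 2iL-iPSC clones, a log2 difference of 2.39 (SE 0.40, adjusted p = 0.032). All OSKM libraries were thus above all 2iL libraries, and the 2 OSKM-iPSC clones differed from each other by 1.21 on the log2 scale.

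Cdh2, which encodes N-cadherin, was below MEFs in every pluripotent library yet higher under OSKM than in 2iL. MEF libraries had 41 and 47.1 FPKM. OSKM-ESC libraries had 3.49 and 5.04 FPKM on day 18, 3.52 and 5.39 on day 25, and 15.4 and 16.7 on day 38, whereas 2iL-ESC libraries stayed between 0.45 and 1.25. The groups did not overlap, day 38 lay apart within OSKM-ESC, and the log2 difference over all days was 2.13 (SE 0.21, limma adjusted p = 5.8e-06). Without day 38, an alternative added after the data were seen, it was 1.69 and still passed the test. In OSKM-iPSC, clone 1 had 7.43 FPKM and clone 3 had 1.64, against 0.571 and 0.743 in the 2iL-iPSC clones. The iPSC difference of 1.51 did not pass the test with both clones (interval 0.11 to 2.91, limma adjusted p = 0.15). It was 0.67 without clone 1 (adjusted p = 0.17) and passed without clone 3 (2.35, adjusted p = 0.025).

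Vim, which encodes the fibroblast intermediate filament vimentin, moved the opposite way to Cdh2 in ESCs. The MEF libraries had 1671 and 1865 FPKM, so pluripotent cells held a small part of the fibroblast level. OSKM-ESC libraries had 135 and 132 FPKM on day 18, 82.2 and 77.8 on day 25, and 166 and 167 on day 38. The 2iL-ESC libraries had 206 and 206, 128 and 125, and 199.6 and 195. On each day both OSKM-ESC libraries were below both 2iL-ESC libraries, although the ranges over all days overlapped, and the log2 difference was -0.51 (SE 0.07, limma adjusted p = 6.6e-05). The OSKM-iPSC clones split widely, with 218 FPKM in clone 1 and 29.2 in clone 3, while the 2iL-iPSC clones had 205 and 221. Clone 3 therefore had the lowest Vim level of all 18 libraries.

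Of the repressors of the SNAI and ZEB families, Snai1 and Zeb2 were higher and Zeb1 was lower in OSKM-ESC than in 2iL-ESC. Snai1, a direct repressor of E-cadherin, had 29.96 and 33.7 FPKM in MEFs. It ranged in OSKM-ESC from 2.07 to 7.15 FPKM with a median of 3.31, and in 2iL-ESC from 0.952 to 3.13 with a median of 1.47. These ranges overlapped, and the log2 difference of 0.87 passed the test (SE 0.20, limma adjusted p = 0.0028). In iPSCs Snai1 was at 4.61 and 2.27 FPKM in OSKM clones and at 2.88 and 2.24 in 2iL clones, with no resolved difference (0.27, interval -0.56 to 1.10, adjusted p = 0.61). An estimated 61 to 219 fragments supported Snai1 in an OSKM-ESC library and 26 to 95 in a 2iL-ESC library.

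Zeb2 was close to absent in 2iL and present at a low level under OSKM. MEF libraries had 26.6 and 24.4 FPKM. OSKM-ESC libraries had 1.43 and 1.97 FPKM on day 18, 1.5 and 1.95 on day 25, and 5.4 and 4.79 on day 38, while the 2iL-ESC libraries lay between 0.0276 and 0.116. The groups did not overlap and the log2 difference was 1.74 (SE 0.18, limma adjusted p = 8.4e-06), a scale that understates the change of a gene this low. OSKM-iPSC clone 1 had 3.32 FPKM and clone 3 had 0.777, against 0.078 and 0.106 in the 2iL-iPSC clones. That difference of 1.34 did not pass the test with both clones (interval 0.16 to 2.53, limma adjusted p = 0.14). Without clone 3 it was 1.98 (adjusted p = 0.025), and without clone 1 the gene did not reach the filter of 1 FPKM and was not tested, with a log2 difference of 0.70.

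Zeb1, a relative of Zeb2 that binds the same E-box, did not follow it. Its MEF levels were 12.8 and 12.5 FPKM, the lowest fibroblast level of the 7 mesenchymal genes. In OSKM-ESC it was at 1.68 and 1.32 FPKM on day 18, 2.26 and 2.66 on day 25, and 3.46 and 4.21 on day 38, against 3.66 to 4.67 in the 2iL-ESC libraries. The OSKM-ESC levels were lowest on day 18 and met the 2iL-ESC range on day 38, and the log2 difference over all days was -0.59 (SE 0.15, limma adjusted p = 0.0051). In iPSCs it was at 3.91 and 2.13 FPKM under OSKM and at 5.32 and 3.88 in 2iL (difference -0.50, interval -1.28 to 0.27, adjusted p = 0.33).

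Snai2, the SNAI family member typical of fibroblasts and neural crest, was at 26 and 28 FPKM in MEFs and at most 0.599 FPKM in every pluripotent library, with 2iL-iPSC clone 6 listed at 0. It did not reach the filter of 1 FPKM in either medium, and an exact two-sided permutation test over the ESC libraries gave a difference of -0.06 on the log2(FPKM + 1) scale (n = 6 against 6, p = 0.4913, with 0.0022 the smallest p possible). Twist1 had 27.8 and 23.8 FPKM in MEFs. It ranged from 1.66 to 2.55 FPKM in OSKM-ESC and from 0 to 1.07 in 2iL-ESC without overlap, a log2 difference of 1.17 (SE 0.14, limma adjusted p = 2.3e-05). In iPSCs it was at 1.54 and 2.00 FPKM under OSKM and at 0.745 and 0.721 in 2iL, and the difference of 0.67 did not pass the test (interval -0.01 to 1.35, adjusted p = 0.18).

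Over all days, 8 of the 9 genes tested passed the test between OSKM-ESC and 2iL-ESC, 6 higher (Epcam, Cldn6, Cdh2, Snai1, Zeb2 and Twist1) and 2 lower (Vim and Zeb1), where 53.8% of all 14016 genes tested passed. By direction, 29.5% of all genes passed as higher and 24.4% as lower. The groups did not overlap for 5 of the 9, all higher under OSKM, where 14.6% of all genes lay wholly above and 12% wholly below. Zeb2, among these 5, passed the filter only through OSKM-ESC and could not have lain below. The median log2 difference of the 9 genes was 1.17 and that of all genes was 0.03. Higher levels under OSKM thus occurred both among epithelial genes (Epcam, Cldn6) and among mesenchymal genes (Cdh2, Snai1, Zeb2, Twist1).

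**Figure D2:**
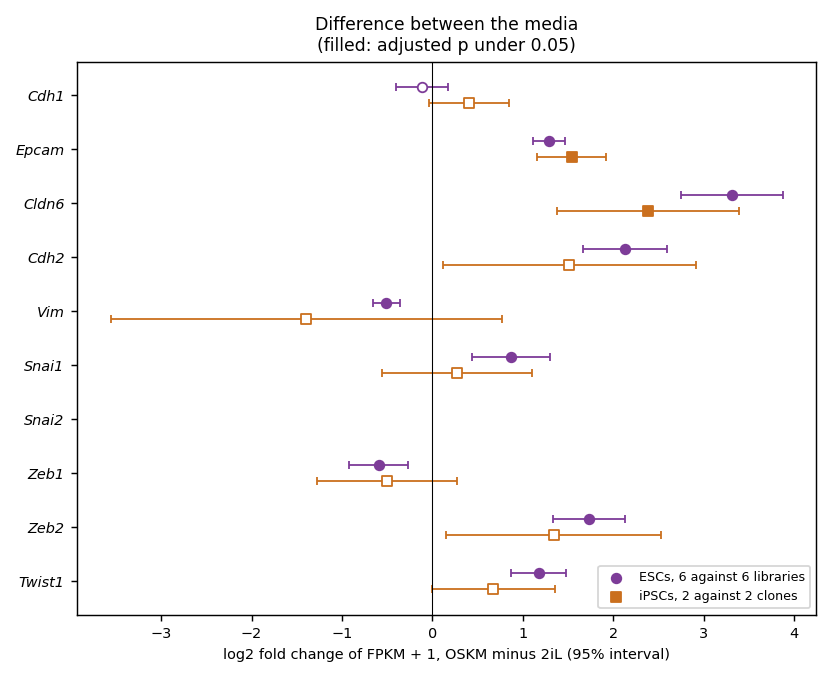
OSKM minus 2iL difference in log2(FPKM + 1) for each gene, in ESCs over all days and in iPSCs, with 95% intervals and filled points where the adjusted p was under 0.05. In ESCs 8 points are filled, from 3.32 for Cldn6 to -0.59 for Zeb1. In iPSCs only Epcam and Cldn6 are filled, and the widest interval is that of Vim.

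The interaction of medium and day passed the test for 8 of the 9 genes (limma, adjusted p from 3e-05 for Cldn6 to 0.026 for Epcam), where 37.9% of all genes did, and Twist1 did not (adjusted p = 0.13). A single fit of all 18 libraries called 3 of the genes for the interaction, and the cutoff of the study (fold over 2 and unadjusted p under 0.05) called 4. Cdh1 was higher under OSKM by 0.41 on day 18 (adjusted p = 0.0071), and differed by -0.15 on day 25 (adjusted p = 0.22) and by -0.59 on day 38 (adjusted p = 0.00078). The similar Cdh1 levels over all days were thus the mean of differences in opposite directions. The Cldn6 difference narrowed from 4.48 on day 18 to 3.02 on day 25 and 2.46 on day 38. The mesenchymal genes Cdh2 and Zeb2 went the other way, with Cdh2 differences of 1.72, 1.66 and 3.01 and Zeb2 differences of 1.36, 1.34 and 2.51 on the 3 days. Snai1 differed by 0.30 on day 18, which did not pass (adjusted p = 0.14), by 0.63 on day 25 and by 1.67 on day 38 (adjusted p = 1.8e-05). Zeb1 was lower by -1.07 and -0.62 on the earlier days and differed by -0.09 on day 38 (interval -0.41 to 0.23, adjusted p = 0.64). On each single day 8 of the 9 genes passed, against 50.2%, 51.7% and 50.3% of all genes on days 18, 25 and 38, with Snai1, Cdh1 and Zeb1 in turn the gene that did not. Single libraries decided some of these calls: Cdh1 on day 18 was 0.31 without 2iL-ESC replicate 1 of that day (adjusted p = 0.061), Snai1 on day 18 passed without 2iL-ESC replicate 2 (0.55, adjusted p = 0.013), and Snai1 (0.58) and Twist1 (0.62) on day 25 did not pass without 2iL-ESC replicate 2. The Epcam interaction was lost without either OSKM-ESC or either 2iL-ESC library of day 38, or without 2iL-ESC replicate 2 of day 25 (adjusted p up to 0.10).

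**Figure D3:**
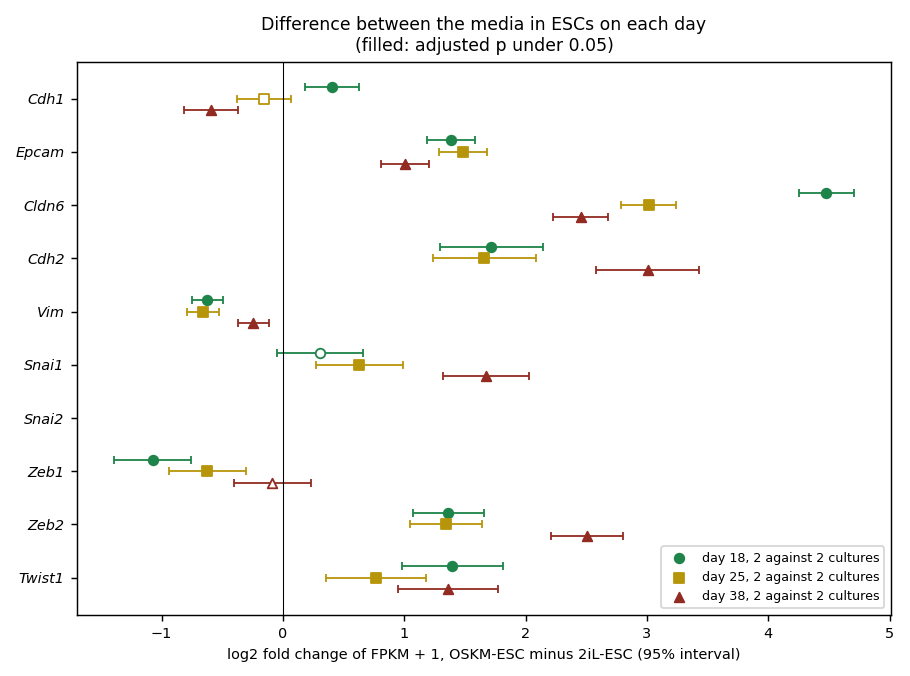
OSKM-ESC minus 2iL-ESC difference in log2(FPKM + 1) for each gene on days 18, 25 and 38, with 95% intervals and filled points where the adjusted p was under 0.05. The Cdh1 points run from 0.41 to -0.59, the Cldn6 points from 4.48 to 2.46, and the Cdh2, Snai1 and Zeb2 points are highest on day 38.

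Within OSKM-ESC alone the level differed between days for 8 of the 9 genes, with Twist1 the exception (limma adjusted p = 0.73), where 51.4% of all genes did. Within 2iL-ESC it did so for 6 of the 9, not for Cdh2, Zeb1 or Zeb2 (adjusted p = 0.19, 0.95 and 0.97), where 42.4% of all genes did. Cdh1 and Vim moved with the day in 2iL-ESC too, by up to 0.90 and 0.70 between days, while the smaller day differences of Epcam (0.32) and Twist1 (0.67) there lost their calls without any 1 of several ESC libraries. Markers of the primitive streak and mesoderm moved with the day as well. Their 10 genes summed to 51.7 and 71.9 FPKM on day 18 of OSKM-ESC, 27.0 and 23.2 on day 25, and 289 and 289 on day 38, against 6.70 to 10.3 in 2iL-ESC. On day 38 all 10 of these markers were higher than in 2iL-ESC, among them T, the streak transcription factor brachyury, with a mean of 196 FPKM, and the mesoderm factor Tbx6 with 14.1. Without day 38 only 4 of the 10 reached the filter. The others entered the test only through day 38, so a higher level there was largely fixed in advance. Of all genes 50.3% passed on that day, and 58.0% of those were higher. On the same day all 6 tested neural markers passed the test, 5 higher and 1 lower, with a median difference of 1.23 against 0.20 on days 18 and 25. All 4 tested extraembryonic endoderm markers were higher on day 38, with a median of 1.26, and the 10 markers of that list summed to 8.05 and 10.1 FPKM against 2.68 to 4.52 on the other days of OSKM-ESC. Without day 38, 4 neural markers and 1 endoderm marker reached the filter, so the others entered the test only through that day. The endoderm marker Pdgfra is also in the fibroblast list. The fibroblast level was 1.41% and 1.91% of MEFs in the day 38 OSKM-ESC libraries, below the 2.54% and 2.87% of day 18, while Cdh2 stood at 35.1% and 37.8% of its MEF level and Zeb2 at 21.2% and 18.8%. The part of fibroblasts, or of cells with streak, neural or endoderm markers, in the day 38 levels was not tested.

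Relative to MEFs, all 10 genes passed the test in each of the 4 pluripotent groups, the 3 epithelial genes higher and the 7 mesenchymal genes lower. Of all genes, 60.3% passed in OSKM-iPSC against MEF (34% higher and 26.4% lower), 78% in 2iL-iPSC (40.6% and 37.4%), 81.1% in OSKM-ESC (44.8% and 36.2%) and 86.2% in 2iL-ESC (46.5% and 39.8%). These comparisons share the 2 MEF libraries. Of the 10 genes, 6, 3, 6 and 5 exceeded 1 FPKM in both groups of these comparisons, in the same order, and the others did so only in the group where they are high, so they had to differ. The adjusted p values (limma) ran from 0.00077 to 0.020 in OSKM-iPSC and from 1.1e-05 to 0.0011 in 2iL-iPSC. The OSKM-iPSC calls rested on both MEF libraries: without either of them no gene passed, 5832 and 5877 genes had an unadjusted p under 0.05, and the adjusted p of the 10 genes ran from 0.062 to 0.165. Epcam was higher than in MEFs by 7.06 on the log2(FPKM + 1) scale in OSKM-iPSC, 5.52 in 2iL-iPSC, 6.8 in OSKM-ESC and 5.50 in 2iL-ESC. For Cdh2 the differences were -3.25, -4.76, -2.52 and -4.65 in the same order, and for Zeb2 -3.26, -4.60, -2.90 and -4.64. Snai2 fell by a similar amount in each group, with -4.38, -4.58, -4.37 and -4.31. Zeb1 showed the smallest differences of the 10 genes, with -1.80, -1.30, -1.98 and -1.38.

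Each library was then placed on a line from the MEF mean (0%) to the 2iL-ESC mean (100%) of log2(FPKM + 1), gene by gene. The median over the 10 genes was 94.0% in OSKM-iPSC clone 1, 98.6% in OSKM-iPSC clone 3, 95.5% and 99.8% in the 2iL-iPSC clones, and 96.7% to 103% in the 6 OSKM-ESC libraries. By this median the clones lay close to 2iL-ESC, and single genes spread much further. Cdh2 was at 51.9% in clone 1, the lowest of the 10 genes there, and at 87.9% in clone 3 of OSKM-iPSC, 29% to 71.5% in OSKM-ESC, and 104% and 101% in 2iL-iPSC clones 3 and 6. Zeb2 was at 56.4% and 84% in the OSKM-iPSC clones and at 44.2% to 74.2% in OSKM-ESC. Twist1 was at 80.3% or less in every OSKM library and, at 74.6%, was the lowest of the 10 genes in clone 3. Of the epithelial genes, Epcam was at 129% and 128% and Cldn6 at 247% and 203% in clones 1 and 3, and Cldn6 was also at 132% and 145% in 2iL-iPSC clones 3 and 6. Cdh1 was at 97.9% and 93.7% in the OSKM-iPSC clones and at 92.8% to 104% in OSKM-ESC. OSKM libraries were therefore not evenly displaced along this line. Epcam, Cldn6 and the mesenchymal gene Zeb1 lay beyond 2iL-ESC in all 8 of them. Zeb1 was at 100.5% to 185% in OSKM-ESC and at 107% and 153% in OSKM-iPSC clones 1 and 3. Vim lay beyond 2iL-ESC in every OSKM library except OSKM-iPSC clone 1 (90.1%). Cdh2, Snai1, Zeb2 and Twist1 lay between MEFs and 2iL-ESC in all 8.

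**Figure D4:**
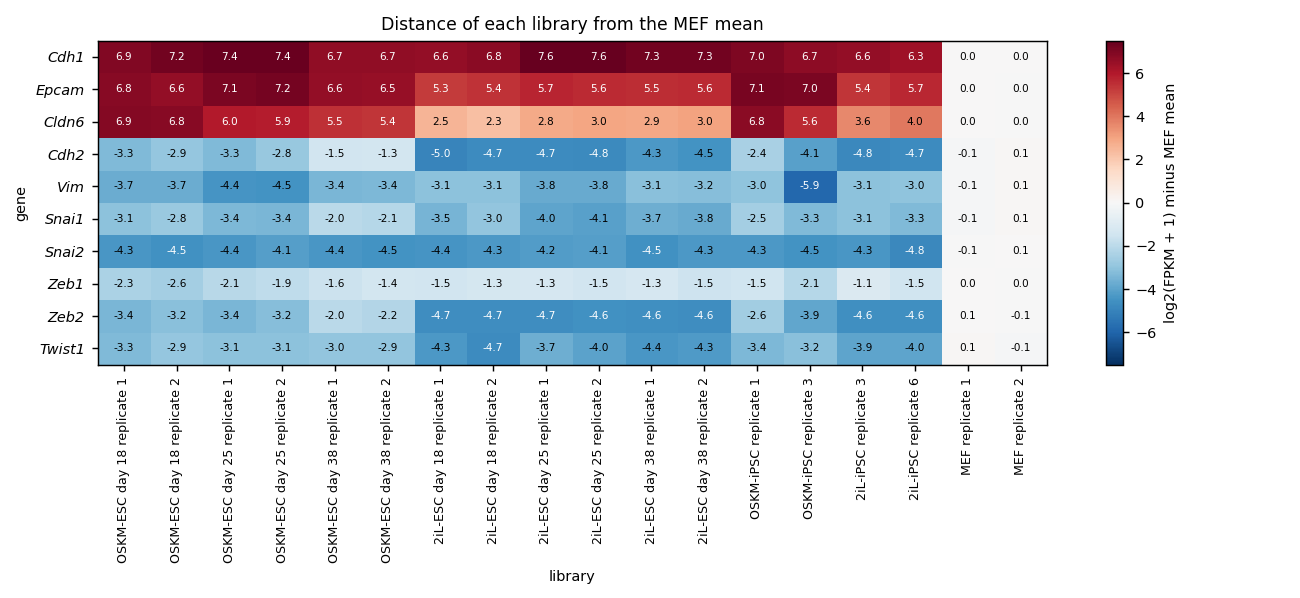
Heatmap of log2(FPKM + 1) minus the MEF mean for the 10 genes (rows) in all 18 libraries (columns). Cdh1, Epcam and Cldn6 are positive and the other 7 genes negative in every pluripotent library, and the negative values of Cdh2 and Zeb2 are smallest in the day 38 OSKM-ESC libraries and in OSKM-iPSC clone 1.

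The OSKM-iPSC clones differed from each other more than the 2iL-iPSC clones did for several mesenchymal genes and for the epithelial gene Cldn6. Clone 1 exceeded clone 3 by 2.86 on the log2(FPKM + 1) scale for Vim, 1.67 for Cdh2, 1.28 for Zeb2 and 1.21 for Cldn6. Between the 2iL-iPSC clones the same genes differed by 0.11, 0.15, 0.04 and 0.36. Epcam (0.05) and Snai2 (0.17) differed little between the OSKM clones, and Twist1 was lower in clone 1 (-0.24). With a single library per clone these differences between clones have no test. Only Epcam and Cldn6 passed the test between OSKM-iPSC and 2iL-iPSC, 2 of 9 genes and both higher, where 7.96% of all 13653 genes passed (5% higher and 2.96% lower). In this comparison 6 genes exceeded 1 FPKM in both groups and Cdh2, Zeb2 and Twist1 did so only through OSKM-iPSC. Both OSKM clones lay above both 2iL clones for 6 of the 9 genes, where 37.2% of all genes did, and below for 0 of the 9, where 25.4% did. The 6 were Cdh1, Epcam and Cldn6, and also Cdh2, Zeb2 and Twist1. Given how they passed the filter, Cdh2, Zeb2 and Twist1 could not have lain below, so they add little to this count.

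Leaving out clones moved the number of genes that passed. Without an OSKM-iPSC clone, 1 library of that group remains, which is assumed to vary like the 2iL-iPSC clones, so these calls describe that clone. Without OSKM-iPSC clone 1, 3 of the genes passed, Epcam, Cldn6 and Vim, the last at -2.82 (limma adjusted p = 0.019). Without clone 3, 4 passed, Epcam, Cldn6, Cdh2 and Zeb2, and the Vim difference turned to 0.034. Without either 2iL-iPSC clone limma called no gene of all those tested, although 1917 and 1880 had an unadjusted p under 0.05. The calls for Epcam and Cldn6 in iPSCs therefore rested on having both 2iL-iPSC clones.

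Fibroblast markers moved with several of the clone 1 values. With 7.57% of the MEF level of fibroblast markers, clone 1 had 12.3% of the MEF level of Vim, 16.9% of Cdh2, 13% of Zeb2 and 14.5% of Snai1. The 12 markers summed to 115 FPKM in clone 1, 9.01 in clone 3, 5.69 and 3.99 in the 2iL-iPSC clones, and 2409 and 2240 in MEFs. Snai2, a gene almost limited to MEFs here, was at 1.58% of its MEF level in clone 1. That is 0.428 FPKM, beside 2.05 for its MEF level times the fibroblast level. Twist1 was higher in clone 3 (7.76% of MEFs) than in clone 1 (5.98%), and the fibroblast level of clone 3 was 0.138%. Vim in the 2iL-iPSC clones stood at 11.6% and 12.5% of MEFs with a fibroblast level of at most 0.155%. The fibroblast level is a median over markers that varied widely. In OSKM-ESC, Mmp2 averaged 7.01 FPKM against 65.6 in MEFs, and Fbln2 4.25 against 977. The MEF libraries came from cells in serum medium and not from feeder cultures, and the source of these levels was not tested.

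When the MEF profile was subtracted from each library in proportion to its fibroblast level, 8 genes still passed in ESCs, with Cdh2 at 2.05, Zeb2 at 1.57, Twist1 at 1.0 and Vim at -0.94. In iPSCs Epcam and Cldn6 still passed, Cdh2 was 1.18 (limma adjusted p = 0.12), Zeb2 0.94 (adjusted p = 0.13) and Twist1 0.02 (adjusted p = 0.99), and Vim reached -2.12 (adjusted p = 0.061). The subtraction assumes 1 fibroblast level for all genes of a library, and the source of the remaining differences was not tested. For Vim the subtraction could only widen a negative difference, since OSKM-ESC had the higher fibroblast level. The Twist1 value in iPSCs is a mean of clones that went opposite ways, -0.77 in clone 1 and 0.80 in clone 3. In clone 1 the subtracted amount, 1.95 FPKM, exceeded the measured 1.54 FPKM, so its level was set to 0.

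**Figure D5:**
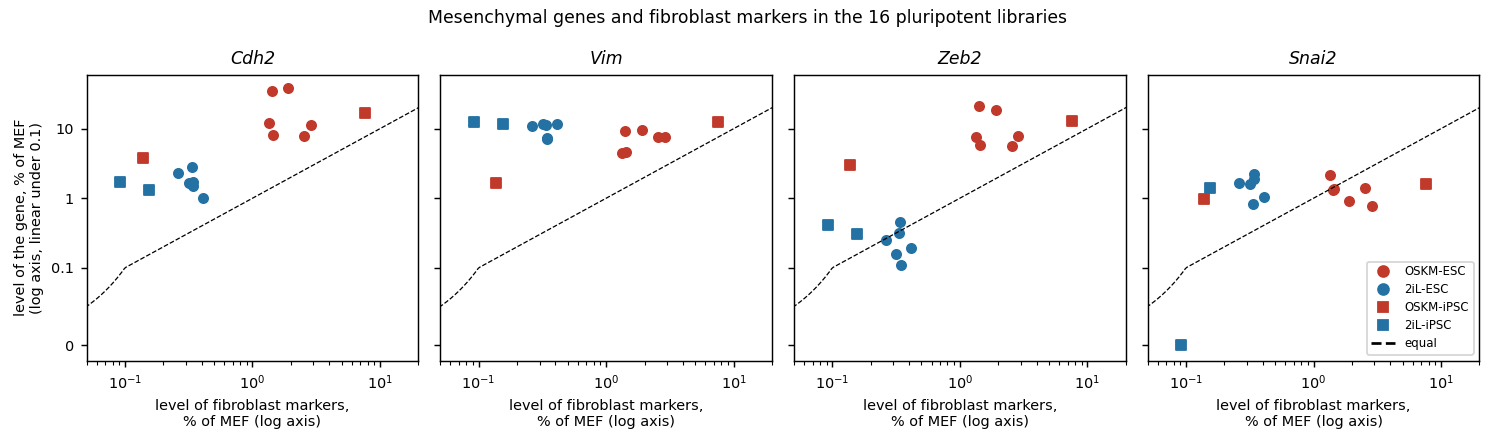
Level of Cdh2, Vim, Zeb2 and Snai2 as a percentage of the MEF mean (vertical) against the fibroblast marker level as a percentage of the MEF mean (horizontal) in the 16 pluripotent libraries, with a dashed line where both are equal. Cdh2 reaches 37.8% in OSKM-ESC libraries with a fibroblast level below 2%, Vim lies far above the line in every 2iL library, and Snai2 in OSKM-iPSC clone 1 lies below the line at 1.58%.

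Whether the medium difference was the same in iPSCs and ESCs was tested within 1 model over both origins. The spread in that model came mostly from pairs of same-day ESC libraries, which may be technical. Its p-values therefore measure little of the spread between clones. Cdh1 passed, with a medium difference larger in iPSCs by 0.52 (SE 0.15, interval 0.19 to 0.84, limma adjusted p = 0.040), where 14.2% of all genes passed. The other 8 genes did not pass. Epcam differed by 0.25 (interval -0.02 to 0.51), Cldn6 by -0.93 (-1.65 to -0.21, adjusted p = 0.081) and Cdh2 by -0.62 (-1.63 to 0.39). The intervals of Cdh2 and Vim (-2.41 to 0.64) were wide, and they do not show that the origins responded alike. The Cdh1 call was lost without OSKM-iPSC clone 1, without 2iL-iPSC clone 6, without 2iL-ESC replicate 2 of day 18, and without any 1 ESC library of day 25 or 38 (adjusted p up to 0.167). Without OSKM-iPSC clone 1, a single library of that group remained. The values furthest below 0 were then those of Vim (-2.31), Cldn6 (-1.54), Cdh2 (-1.45), Zeb2 (-1.03) and Snai1 (-0.98). Without clone 3, which also left a single library, the Vim value was 0.54, of the opposite sign.

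The ratio of Cdh1 to Cdh2, on the scale of log2 of (FPKM + 1), put the cadherin switch into 1 value per library. It was -5.39 and -5.59 in MEFs, 5.98 to 6.85 in 2iL-ESC (mean 6.33), and 5.95 and 5.53 in the 2iL-iPSC clones. OSKM-ESC libraries had 4.76 and 4.64 on day 18, 5.23 and 4.76 on day 25, and 2.63 and 2.51 on day 38. OSKM-iPSC clone 1 had 3.94 and clone 3 had 5.31. E-cadherin transcripts exceeded N-cadherin transcripts in every pluripotent library, and the margin was smallest in OSKM-ESC on day 38.

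Other genes of the same programmes moved in both directions in ESCs, where 29.5% of all genes were higher and 24.4% lower with a median of 0.03. Of 24 junction and polarity genes, 17 were higher and 0 lower in OSKM-ESC on day 18, with a median difference of 0.95. On day 25 the counts were 8 and 4 (median 0.10), and on day 38 they were 13 and 3 (0.34). Of all genes, 50.2%, 51.7% and 50.3% passed on days 18, 25 and 38. Over all days, 13 of the 24 were higher and 3 lower, with a median difference of 0.40. Among them, Cldn7, another tight-junction claudin, rose from 4.58 to 27.3 FPKM (log2 difference 2.48), the desmosome linker Dsp from 0.938 to 7.83 (2.12) and the tricellular junction receptor Lsr from 12.8 to 46.1 (1.79), and Dsc2, a desmosomal cadherin, rose by 1.51. Of 20 epithelial regulators and surface genes, 18 were tested, 11 were higher and 2 lower (median 0.94), including Krt19, a simple-epithelium keratin (2.47), the vesicle-traffic GTPase Rab25 (1.99), the adaptor subunit Ap1m2 (1.83) and the epithelial splicing factor Esrp1 (6.54 to 25.9 FPKM, 1.83). Among other cadherins 4 of 7 were tested and all 4 were higher (median 0.83), namely Cdh4 (1.30), Cdh3 (0.94), Cdh11 (0.73) and Cdh6 (0.72). Without day 38 only 3 of these reached the filter, so the remaining one entered the test only through that day.

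Mesenchymal effector genes were likewise mostly higher, 12 of 20 against 4 lower, with a median of 0.82, beside 29.5% higher and 24.4% lower among all genes. The smooth-muscle actin Acta2 rose from 0.511 to 18.1 FPKM in ESCs under OSKM (log2 difference 3.34), the actin-binding Cald1 from 3.19 to 28.7 (2.79) and the tropomyosin Tpm1 from 37 to 179, while Spp1, which encodes the secreted protein osteopontin, fell from 270.0 to 22.4 (-3.62). Of 16 other transcription factors of the transition, 14 were tested, 7 were higher and 4 lower (median 0.29). Id2, an inhibitor of helix-loop-helix factors, rose by 2.24, the helix-loop-helix factor Tcf12 by 1.34, and the repressor Klf8 differed by -1.26, while Sox9 was listed at 0 in every 2iL-ESC library and averaged 0.971 FPKM in OSKM-ESC. Of 15 genes of the TGF-beta pathway, 13 were tested, 8 were higher and 2 lower (median 0.42), with the signal transducer Smad3 at 1.10, the latent TGF-beta binding protein Ltbp1 at 0.94, the SMAD co-repressor Skil at 0.82 and the receptor Tgfbr2 at 0.61. Without day 38, counts added after the data were seen, 10 of 24 junction genes were higher and 1 lower, 13 of 19 tested mesenchymal effectors were higher and 3 lower, and 2 of 11 tested other factors of the transition were higher and 4 lower, where 21.8% of all genes were higher and 20.2% lower.

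In iPSCs fewer list genes passed the test, as did fewer of all genes (5% higher and 2.96% lower). Junction and polarity genes had 7 of 24 higher and 0 lower, led by Cldn3 (2.60) and Cldn7 (2.49). Of the epithelial regulators and surface genes 7 were higher and 1 lower among 18 tested, led by Krt7 (2.90), a keratin, and the membrane protease Prss8 (2.81). P-cadherin, Cdh3, was the 1 other cadherin of 3 tested that passed, at 20.8 against 4.17 FPKM (2.07). Mesenchymal effectors had 1 higher, Cald1 (3.27), and 1 lower, Spp1 (-2.25), among 19 tested. Other factors of the transition had 3 higher and 1 lower among 12 tested, led by Id2 (2.71) and Tcf12 (1.45), and the TGF-beta pathway had 2 of 15 higher, Smad3 (1.85) and Skil (1.35). The median difference was 0.69 for junction genes and 1.44 for mesenchymal effectors, beside 0.09 for all genes, and the clones split in the latter. Clone 1 differed from the 2iL-iPSC mean by a median of 0.80 over junction genes and 2.52 over mesenchymal effectors, and clone 3 by 0.52 and 0.05. Without clone 1, 5 of 24 junction genes were higher and 0 lower, and 3 of 13 tested mesenchymal effectors were higher and 1 lower with a median of -0.17, where 3.83% of all genes were higher and 2.58% lower. Without clone 3, 10 of 24 junction genes were higher and 0 lower, and 14 of 19 mesenchymal effectors were higher and 1 lower, where 10.4% of all genes were higher and 5.12% lower. These counts of lists without a clone were added after the data were seen.

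Marker lists of other cell types were read in the same comparisons. In ESCs 29.5% of all genes were higher and 24.4% lower under OSKM. There 10 of 11 tested fibroblast markers were higher (median 1.02) and 7 of 8 pluripotency markers were lower (median -1.97). The fibroblast markers Pdgfra, Dcn, Postn and Loxl1 averaged 0.105, 0.127, 0.227 and 0.30 FPKM in 2iL-ESC. They entered the test only through OSKM-ESC and could hardly have come out lower. Of the other lists, 6 of 10 streak and mesoderm markers were higher, 4 of 6 tested neural markers were higher and 1 lower, and 3 of 4 tested extraembryonic endoderm markers were higher. Without day 38, 4 streak, 4 neural and 1 endoderm markers reached the filter, so the others entered the test only through day 38. The neural factor Sox1 was listed at 0 in every group mean. In iPSCs, 0 of 10 tested fibroblast markers passed, although their median difference was 1.62 and the clones split, with 2.73 in clone 1 and 0.09 in clone 3. Further, 4 of 8 pluripotency markers were lower, 1 of 5 tested streak markers was higher, 1 of 3 tested neural markers was lower, and the 1 tested endoderm marker did not pass. Among all genes in iPSCs, 5% were higher and 2.96% lower. In ESCs the fibroblast and streak markers that passed were all higher under OSKM, and the pluripotency markers that passed were all lower. The part of these markers in the differences of Cdh2, Vim, Snai1, Zeb2 and Twist1 was not tested.

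For 4 of the genes, the genes of most similar pattern over the 9 conditions were found among 15567 genes, by the root mean square difference of group means on the log2(FPKM + 1) scale after each gene was centred on its own mean. Nearest to Cdh2 were Zeb2 itself (0.26), Slit3 (0.28) and Antxr1 (0.33), with Slit3 at 4.82 FPKM in OSKM-ESC, 0.376 in 2iL-ESC and 42.2 in MEFs. Nearest to Epcam were Foxh1 (0.38), Gm21887 (0.43) and the RNA-binding protein gene Lin28a (0.44), with Lin28a at 155 FPKM in OSKM-ESC and 60.1 in 2iL-ESC. Cdh1 lay nearest to Platr10 (0.39), Epop (0.48) and Gldc (0.49), and Platr10 was at 80.9 FPKM in OSKM-ESC, 86 in 2iL-ESC and 0.102 in MEFs. The genes nearest to Vim were Fgf10 (0.39), Ripk3 (0.40) and Pros1 (0.40), all at far lower levels, with Pros1 at 2.41 FPKM in OSKM-ESC, 2.86 in 2iL-ESC and 35.5 in MEFs.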

How the data were processed

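RNA from 18 libraries was poly-A selected with an unstranded kit. Per the labels, the authors aligned reads to GRCm38 with STAR 2.7.1a, kept uniquely mapped reads, and ran StringTie 2.0, and Cuffdiff 2.2.1 is named for their own tests. The annotation is not given in the sources used here. The deposited tables, 1 per library, hold FPKM per gene, TPM (the same values scaled to a fixed library total) and mean coverage, as the authors made them. FPKM was the main measure, and TPM and coverage served as alternatives. Identifiers listed more than once (11) were summed, and 2 genes with a failed value were left out.

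The deposited values are not counts, so log2(FPKM + 1) was fitted with limma 3.58.1 (R 4.3.3, trended empirical Bayes) over all genes above 1 FPKM in at least 1 library of a comparison, with Benjamini-Hochberg adjustment over all of them and a threshold of 0.05. Fold changes on this scale understate those of low genes. MEF comparisons fitted only the groups named, the ESC comparison over days held the day as a term, and the difference between iPSCs and ESCs and the interaction with day were terms of the fits. Fragments per library were estimated from genes with 1 transcript whose coverage times length came to 1 read pair (300 bases), and depth limits values below about 1 FPKM. Snai2 was tested by exact permutation with Python 3.11.15 and scipy 1.17.1. The fits were tested on simulated data first.

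The 10 genes and all lists were chosen with earlier results of these data known. All 10 genes are named in every comparison. From each other list, up to 4 genes with the largest differences among those that passed in ESCs and up to 2 in iPSCs are named, marker lists are given by counts, and 3 genes of most similar pattern are given for 4 members. Alternatives changed the pseudocount (0.1), the filter, scaling, unit, trend, samples, block and cutoff, or subtracted the MEF profile.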

Additional observations from a re-analysis of the deposited data

Results flagged for a closer look

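The medium difference of 8 genes varied between days by the interaction test. The range of the OSKM-ESC minus 2iL-ESC difference over days 18, 25 and 38, on the log2(FPKM + 1) scale, was 2.02 for Cldn6, 1.37 for Snai1, 1.35 for Cdh2, 1.16 for Zeb2, 1.0 for Cdh1, 0.98 for Zeb1, 0.48 for Epcam and 0.41 for Vim. Cdh1 changed sign between days 18 and 38, whereas Cldn6, Epcam, Cdh2, Zeb2 and Vim kept theirs. Day 38 of OSKM-ESC also held the highest streak and mesoderm marker levels, and their part in these ranges was not tested. Between origins, the medium difference of Cdh1 was larger in iPSCs than in ESCs by 0.52 (limma adjusted p = 0.040). The spread behind that p came mostly from same-day ESC libraries, and the difference changes with the processing as given next. No group held the 4 samples needed for an outlier test once days were kept apart.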

How the results depend on the processing

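Among results for single genes, 2399 alternative values kept their direction and their side of the threshold, 112 fell below the threshold, 16 passed it and 12 changed sign; among counts and summary values, 510 stayed close and 58 moved. With the cutoff of the study (fold over 2 and unadjusted p under 0.05), the genes called were 3378 in ESCs over all days, 2428 in iPSCs (4 of the 10 genes), 7678 in OSKM-ESC against MEF, 2114 for the interaction (4), 1251 for the day within OSKM-ESC (5), 904 for the day within 2iL-ESC (0), 650 for iPSCs minus ESCs (0), and 3515, 3413 and 3651 on days 18, 25 and 38. That cutoff lost the Vim and Zeb1 calls in ESCs over all days, and 1 fit of all 18 libraries lost that of Vim (adjusted p = 0.21). The fit of all 18 called 6 of the 10 genes and 6143 genes in iPSCs, 3 and 3112 for the interaction, and 3 for the day within 2iL-ESC. With no filter on low values limma called 0 of the 10 genes and 0 genes in iPSCs (5014 at an unadjusted p under 0.05). The iPSC minus ESC difference called 0 of the 10 with no filter, median-ratio scaling, TPM or no trend, and 2 with the MEF profile subtracted. The cause of these changes was not tested.

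Leaving out single libraries gave 0 to 4 of the 10 genes and 0 to 2076 genes in iPSCs, 0 to 10 and 0 to 9775 in OSKM-iPSC against MEF, 7190 to 10144 genes in 2iL-iPSC against MEF (Zeb1 lost without either MEF library), and 0 to 5 and 1406 to 3656 for iPSCs minus ESCs. Differences spanned 0 when single libraries were left out for Vim (-2.82 to 0.034) and Snai1 (-0.12 to 0.66) in iPSCs, for Zeb1 on day 38 (-0.22 to 0.047), and, between iPSCs and ESCs, for Cdh2 (-1.45 to 0.22), Vim (-2.31 to 0.54), Zeb1 (-0.23 to 0.42) and Zeb2 (-1.03 to 0.25). Cdh1 in ESCs was 0.13 without day 38, Snai1 in iPSCs was -0.13 with the MEF profile subtracted, and the iPSC minus ESC difference of Zeb1 was -0.051 after quantile normalization. With the 2iL-iPSC mean as the far end, the position was 104.5% for OSKM-ESC (99.6% otherwise) and 100.04% for OSKM-iPSC (96.3%). A pseudocount of 0.1 gave cadherin ratios of 7.36 in 2iL-ESC, 6.86 in 2iL-iPSC and -8.78 in MEFs. Of the genes called in iPSCs, 62.8% were higher as reported and 49.0% after quantile normalization. Median-ratio scaling moved the median of all genes in OSKM-iPSC against MEF from 0.19 to 0.00, small beside the differences of the 10 genes.

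With the replicate block, 8 of the 10 genes and 6673 genes passed in ESCs over all days, and Epcam lost its interaction (adjusted p = 0.067). Same-numbered ESC libraries share only a number: their deviations correlated at 0.147, 0.102 and 0.013 on days 18, 25 and 38. Depth limits Snai2, which rested on 0 to 22 fragments per pluripotent library.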
